A study of Mus musculus with 8 samples.

Results

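The proteasome genes described here are the 51 protein-coding mouse genes whose RefSeq symbol is Psma, Psmb, Psmc, Psmd, Psme, Psmf or Psmg followed by a digit. They were taken from 21887 protein-coding genes on chromosomes 1 to 19, X and Y of the build GRCm38.p6, which is the mm10 build of the peak lists. The symbol rule also takes Psmc3ip and Psme3ip1, which encode interacting proteins and not subunits, and 49 genes remain without them. A gene was called bound in a peak list when the centre of a peak lay within 1000 bp of either end of the gene. Such a peak is called a boundary peak below.

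Protein binding to chromatin was measured by ChIP-seq in 2 kinds of mouse oligodendrocyte, the glial cell that makes myelin. Differentiated oligodendrocytes were derived from FvB/C57BL6 hybrid neural stem cells with ectopic PPARb, which the sample titles name HA-PPAR, at passage 7. They were kept in Neurobasal medium with B-27, 2 mM GlutaMAX-I, IGF-1 at 100 ng/mL and T3, a thyroid hormone, at 50 ng/mL, and were probed with antibodies to RNA polymerase II (Pol II), HA, PPARb and Qki-5. Oligodendrocytes from C57BL6 brains, bound to O4 magnetic beads and never passaged (passage 0), were probed with the Qki-5 and PPARb antibodies. All differentiated-cell libraries, their input included, carry the introduced receptor, so no library of that cell kind shows binding without it. The driver of the introduced gene, the number of clones and the number and age of the mice are not given in the sources used here.

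There was 1 library per antibody in each cell kind. Values therefore have no replicate error, and differences are described without a test. The 4 differentiated-cell lists were called against 1 shared input library and the 2 isolated-cell lists against another. The libraries held 12624236 to 24880851 tags, and the lists ranged from 1393 peaks (isolated-cell PPARb) to 30179 peaks (differentiated-cell Qki-5). Tags in peaks fell to 0.116% of the isolated-cell PPARb library, so a missing peak there means only that none was called. That library held 18389111 tags, against 18078176 in the differentiated-cell Qki-5 library. Of 7 oligodendrocyte-lineage markers, Cnp, Mbp and Olig1 had a Pol II peak in the gene or within 1000 bp of it, whereas Mog, Mag, Sox10 and Olig2 had none. The same count was 3 of 4 for astrocyte markers, 3 of 4 for neuronal, 0 of 4 for microglial and 1 of 4 for endothelial markers. In the isolated-cell Qki-5 list, 3 of 7 oligodendrocyte-lineage, 4 of 4 endothelial, 0 of 4 astrocyte, 0 of 4 neuronal and 0 of 4 microglial markers had such a peak. Of the protein-coding genes other than proteasome genes, 43.9% had such a Pol II peak and 32.2% such an isolated-cell Qki-5 peak. The part of other cell types in the peaks at proteasome genes was not tested.

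The proteasome is the barrel-shaped protease that degrades ubiquitin-tagged proteins in the cytosol and nucleus. Its core particle stacks rings of alpha and beta subunits, the beta subunits Psmb5, Psmb6 and Psmb7 carry the active sites, and a regulatory particle of ATPase (Psmc) and non-ATPase (Psmd) subunits recognises, unfolds and feeds in the substrate. Because the subunits are needed in fixed proportions, cells regulate their genes together, and the transcription factor Nfe2l1 is known to raise them as a set, through antioxidant response elements, when proteasome activity drops. Qki-5 is the Quaking isoform found mainly in the nucleus and is known for binding RNA, and PPARb is a nuclear receptor that responds to fatty acids.

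The sequences of 6 promoters are shown because the results turn on them. Psmb5 (chr14:54617996-54618245, minus strand) encodes the chymotrypsin-like active subunit and had peaks of Qki-5 and PPARb in both cell kinds but none of Pol II. Psmd12 (chr11:107479278-107479527, plus strand), a lid subunit, and Psme3 (chr11:101315963-101316212, plus strand), a nuclear activator, had boundary peaks in all 6 lists. Psma6 (chr12:55398575-55398824, plus strand), an alpha ring subunit, and Psmf1 (chr2:151741311-151741560, minus strand), an inhibitor, had peaks at a RefSeq start that the gene-end rule did not take. A further RefSeq start of Psma6, at the gene end and not shown, had no peak within 1000 bp. Psmb9 (chr17:34187331-34187580, minus strand) is the only interferon-inducible catalytic subunit gene of these data with a boundary peak. Each run is the 250 bases before the RefSeq start in GRCm38.p6, 5′ to 3′ in the direction of the gene, from RefSeq. Capitals mark matches, on either strand, to TGACNNNGC (core of the antioxidant response element), AGGTCA (the hexamer bound by nuclear receptors), ACTAAC and ACTAAT (DNA letters of the Quaking RNA motif core), CCGGAAG (bound by ETS factors) and CCAAT (bound by NF-Y).
Psmb5: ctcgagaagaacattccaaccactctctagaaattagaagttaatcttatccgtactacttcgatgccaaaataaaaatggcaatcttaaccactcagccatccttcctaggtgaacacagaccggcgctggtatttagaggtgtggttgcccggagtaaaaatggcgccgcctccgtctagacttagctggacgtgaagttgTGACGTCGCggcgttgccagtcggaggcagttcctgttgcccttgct
Psmd12: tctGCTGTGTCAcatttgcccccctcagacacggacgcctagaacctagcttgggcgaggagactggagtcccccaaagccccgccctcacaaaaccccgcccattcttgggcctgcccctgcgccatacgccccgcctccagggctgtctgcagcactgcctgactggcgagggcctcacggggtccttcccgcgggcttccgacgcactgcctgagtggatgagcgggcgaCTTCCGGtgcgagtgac
Psme3: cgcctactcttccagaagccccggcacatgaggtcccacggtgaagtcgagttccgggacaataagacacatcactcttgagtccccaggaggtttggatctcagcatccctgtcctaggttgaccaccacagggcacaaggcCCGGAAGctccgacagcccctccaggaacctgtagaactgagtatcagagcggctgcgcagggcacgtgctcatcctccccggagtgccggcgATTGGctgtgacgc
Psma6: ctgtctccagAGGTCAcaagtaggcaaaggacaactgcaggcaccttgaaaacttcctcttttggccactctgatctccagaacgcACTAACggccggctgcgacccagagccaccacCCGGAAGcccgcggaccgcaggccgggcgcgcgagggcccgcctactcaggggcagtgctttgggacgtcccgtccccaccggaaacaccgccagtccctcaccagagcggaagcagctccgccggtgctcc
Psmf1: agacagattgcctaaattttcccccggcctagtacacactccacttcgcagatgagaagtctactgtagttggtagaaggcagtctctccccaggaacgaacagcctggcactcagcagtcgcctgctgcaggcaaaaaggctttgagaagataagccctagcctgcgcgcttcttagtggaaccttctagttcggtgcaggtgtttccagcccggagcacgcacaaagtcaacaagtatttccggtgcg
Psmb9: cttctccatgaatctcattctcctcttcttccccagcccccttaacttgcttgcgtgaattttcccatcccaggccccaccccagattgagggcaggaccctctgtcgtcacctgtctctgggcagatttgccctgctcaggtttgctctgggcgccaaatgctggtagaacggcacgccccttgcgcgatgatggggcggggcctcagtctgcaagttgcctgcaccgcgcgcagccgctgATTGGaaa

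The Psmb5 promoter held TGACGTCGC at positions -47 to -39, counted from the start, with the base before the start as -1. The Psmd12 promoter held a match to the same motif on the other strand at -247 to -239 and an ETS motif at -17 to -11. Psma6 held AGGTCA at -240 to -235, ACTAAC at -164 to -159 and CCGGAAG at -132 to -126, and Psmf1 held none of the 6 motifs in these bases. Psme3 had CCGGAAG at -107 to -101 and CCAAT, on the other strand, at -14 to -10, and Psmb9 had CCAAT on the other strand at -8 to -4.

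In differentiated cells most proteasome genes had boundary peaks of every antibody. Qki-5 was at 43 of 51 proteasome genes (84.3%), against 46.3% of all protein-coding genes. PPARb was likewise at 43 of 51, against 42.1% of all genes. The HA antibody, which reads the introduced receptor, marked 42 (82.4%), against 46.5% of all genes. Pol II, the enzyme that transcribes these genes, was at 39 (76.5%), against 36.4% of all genes. In isolated cells Qki-5 was at 28 proteasome genes (54.9%), against 26.4% of all genes, and PPARb at 8 (15.7%), against 5.01%. The share of proteasome genes was above the background in each of the 6 lists. With peaks at 8-fold over input or more, isolated-cell Qki-5 was at 9 proteasome genes (17.6%), against 9.25% of other genes, and isolated-cell PPARb at 1 (1.96%), against 1.17%. With only the 2000 tallest peaks of each list, Pol II was at 4 proteasome genes (7.84%), below the 8.49% of other genes, and Qki-5 at 13 (25.5%), above 6.99%. That Pol II count leaves out Psma6, whose Pol II peak of 19.3 at a RefSeq start is not a boundary peak.

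**Figure D1:**
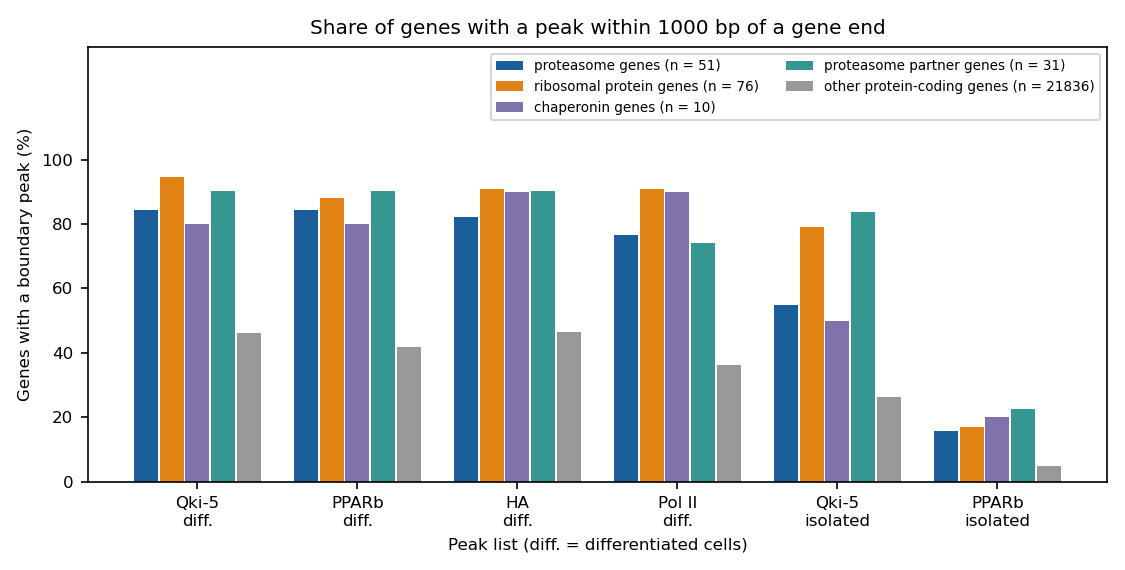
Bars give the percentage of genes, on an axis from 0, with a peak centre within 1000 bp of a gene end in each of the 6 peak lists, for proteasome genes, ribosomal protein genes, chaperonin genes, proteasome partner genes and the other protein-coding genes. Proteasome genes stand at 84.3% for differentiated-cell Qki-5 and 15.7% for isolated-cell PPARb, between the other protein-coding genes and the ribosomal protein genes in all 6 lists.

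Peaks of several antibodies were found at most of the same genes. Qki-5 and PPARb both had boundary peaks at 42 of 51 proteasome genes, against 40.0% of all genes, and all 4 differentiated-cell antibodies did at 37 (72.5%), against 31.8%. The latter count was 20 (39.2%) at 8-fold over input, against 15.4% of other genes. Both factors were present in isolated cells at 7 proteasome genes (13.7%), against 4.61%. Boundary peaks in all 6 lists were found at Psmd1, Psmd2, Psmd7, Psmd12 and Psme3, which is 9.80% of proteasome genes against 3.82% of other genes. The largest group, 19 genes, had the 4 differentiated-cell peaks and isolated-cell Qki-5, and 12 more had the 4 differentiated-cell peaks alone. These patterns were not counted for other genes, so the counts have no background. Because the lists of a cell kind share their input library, joint peaks in them are not independent of each other.

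Among genes with Pol II the shares of proteasome genes and of other genes lay closer together than among all genes. Of the 39 proteasome genes with a Pol II boundary peak, 38 had both Qki-5 and PPARb, against 89.0% of all genes with a Pol II peak. Taken separately, Qki-5 was at 97.4%, PPARb at 39 of 39 and HA at 97.4% of these genes, against 95.6%, 91.0% and 96.3% of the other genes with Pol II. Isolated-cell Qki-5 was at 25 of the 39 (64.1%) against 59.4%, and isolated-cell PPARb at 7 (17.9%), against 950 of the 7917 others. Of the 12 proteasome genes without a Pol II boundary peak, 4 had both factors (33.3%), against 12.1% of the other genes without one. These 4 were Psmb5, Psmb7, Psmc4 and Psmd10. The 12 also include Psma6 and Psmf1, which had Pol II, Qki-5 and PPARb peaks at a RefSeq start that the gene-end rule did not take.

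Peak heights below are the authors' tag counts per 10000000 tags, and they compare genes within a list only. Median heights at bound proteasome genes lay near those at the other bound genes. In differentiated cells the medians were 16 against 14.9 for Qki-5, 12 against 11.6 for PPARb, 9.24 against 10.4 for Pol II and 16.2 against 17.4 for HA. In isolated cells they were 13.05 against 11 for Qki-5 and 8.97 against 8.16 for PPARb. Both isolated-cell directions turned when fold over input replaced height, with ratios of the medians of 0.952 in place of 1.19 and 0.797 in place of 1.10. Among all bound genes of a list, those in the top 10% by height began at 22.7 for Qki-5 and took in 9 of 43 proteasome genes (20.9%). For Pol II they began at 18.1 and took in 0 of 39, and the tallest Pol II boundary peak of a proteasome gene, at Psmd5, was 17.7. Psma6, which had no boundary peak, had a Pol II peak of 19.3 at a RefSeq start, above that height. Ribosomal protein genes had a Pol II median of 16.5.

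**Figure D2:**
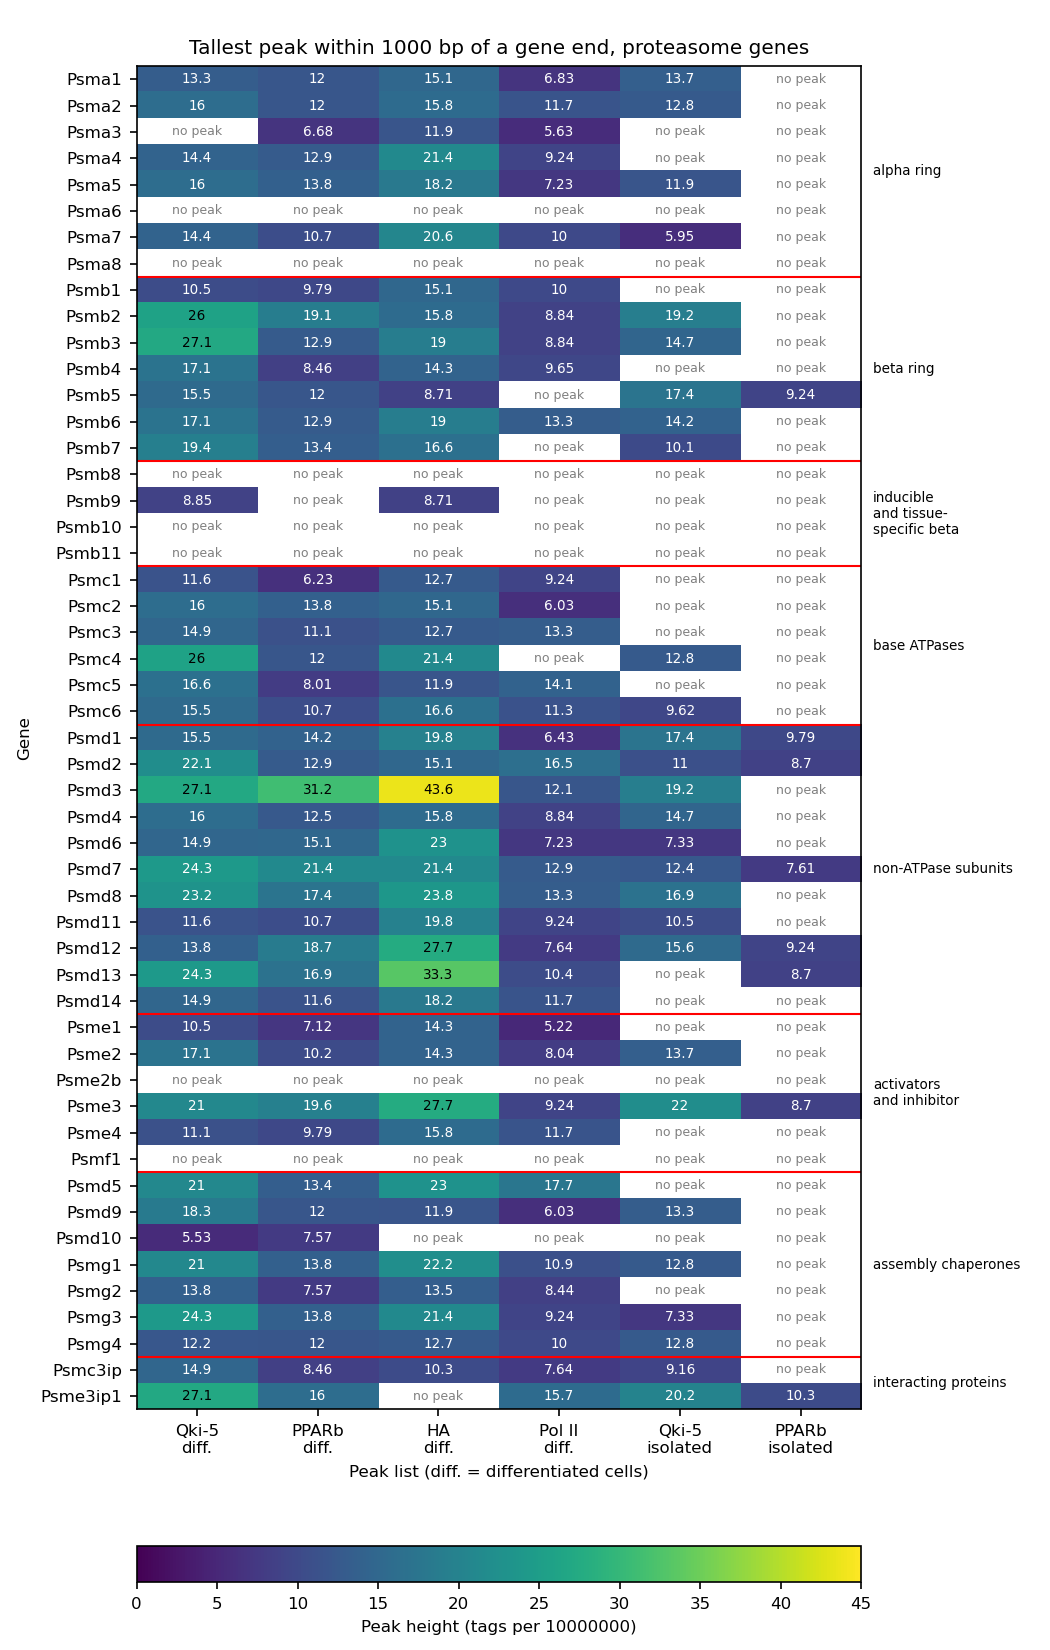
Each row is a proteasome gene, grouped by role between red lines, each column a peak list, and the printed number and colour give the height of the tallest boundary peak in tags per 10000000 (colour scale from 0 to 45). Psmd3 stands out at 31.2 for PPARb and 43.6 for HA, and the inducible and tissue-specific beta group is nearly empty, while Psma6 and Psmf1 read as empty under the gene-end rule although peaks lay at a RefSeq start of each.

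The alpha ring genes encode the outer rings, which gate the core. Boundary peaks were found at 5 of 8 for Qki-5, 6 for PPARb, 6 for HA, 6 for Pol II, 4 for isolated-cell Qki-5 and 0 for isolated-cell PPARb. Psma5 (chr3:108256926-108279952) had heights of 16 for Qki-5, 13.8 for PPARb, 18.2 for HA, 7.23 for Pol II and 11.9 for isolated-cell Qki-5. Psma2, whose peaks also lie within 1000 bp of an end of Mrpl32, had 16, 12, 15.8, 11.7 and 12.8 in the same order. Psma4, whose peaks also lie within 1000 bp of ends of AY074887 and Hykk, had 14.4 for Qki-5, 12.9 for PPARb, 9.24 for Pol II and 21.4 for HA. It had no isolated-cell peak. Over the bound alpha ring genes Qki-5 heights kept to a narrow range, from 13.3 at Psma1 to 16 at Psma2 and Psma5. Psma7 was in the same range at 14.4 and had the lowest isolated-cell Qki-5 boundary peak of the proteasome genes, at 5.95. Its Qki-5 peaks in both cell kinds also lie within 1000 bp of an end of Ss18l1. Psma8, the testis form of an alpha subunit, had no peak in any list, and the nearest lay 20912 bp away, in the Qki-5 list.

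For Psma6 and Psma3 the gene-end rule and a RefSeq start gave different answers. The gene table places Psma6 at chr12:55384222-55418459. One of its RefSeq starts, base 55384222, is the gene end and had no peak within 1000 bp in any list. Another, base 55398825, lies inside that span and is used here because peaks lay at it. Around this start the Qki-5 peak was 17.1 high and 88 bp upstream, the PPARb peak 12.5 and 61 bp upstream, the HA peak 22.2 and 40 bp upstream and the Pol II peak 19.3 and 131 bp upstream. Isolated-cell Qki-5 had a peak of 15.6 at 1 bp after the start. Psma6 was thus without boundary peaks but had start peaks in 5 of the 6 lists. At Psma3 the boundary peaks were low, 6.68 for PPARb, 5.63 for Pol II and 11.9 for HA, and lay 739 to 784 bp from the gene end. Its RefSeq start had higher ones, with Qki-5 at 12.7, PPARb at 9.79, HA at 28.5 and Pol II at 10.4, all 132 to 158 bp after the start.

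All 7 constitutive beta ring genes had Qki-5, PPARb and HA boundary peaks, 5 had Pol II, 5 isolated-cell Qki-5 and 1 isolated-cell PPARb. Psmb5, the chymotrypsin-like subunit and the target of the drug bortezomib, was 15.5 high for Qki-5, 8.71 for HA and 12 for PPARb. In isolated cells its heights were 17.4 (Qki-5) and 9.24 (PPARb), and it was the only beta ring gene with a PPARb peak there. No Pol II boundary peak was called at Psmb5, and the nearest Pol II peak lay 10946 bp away. The Qki-5 and PPARb peaks of both cell kinds had their centres 94 to 145 bp upstream of the start, within the bases printed above. Psmb6, the caspase-like subunit, had 17.1, 12.9, 19 and 13.3 for Qki-5, PPARb, HA and Pol II, and 14.2 for isolated-cell Qki-5. Psmb7, the trypsin-like subunit, had 19.4 for Qki-5, 13.4 for PPARb, 16.6 for HA and 10.1 for isolated-cell Qki-5, again with no Pol II boundary peak.

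The tallest Qki-5 peaks of the beta ring were at Psmb3 and Psmb2, both structural subunits. Psmb3 had 27.1 for Qki-5, 12.9 for PPARb, 19 for HA, 8.84 for Pol II and 14.7 for isolated-cell Qki-5. Its tallest Qki-5 peak also lay within 1000 bp of an end of Pcgf2, and the tallest one not so shared was 8.3. Psmb2 shared its peak with no other protein-coding gene and had 26 (95% exact Poisson interval 19.1 to 34.6, counting error only) for Qki-5, 19.1 for PPARb, 15.8 for HA, 8.84 for Pol II and 19.2 for isolated-cell Qki-5. Psmb2 ranked at the 96.6 percentile of bound genes for Qki-5 and the 95.7 percentile for PPARb in differentiated cells, and at the 96.6 percentile for Qki-5 in isolated cells. Psmb1 and Psmb4 had all 4 differentiated-cell peaks and no isolated-cell boundary peak. For Psmb1 the nearest isolated-cell peaks fell just outside the window, Qki-5 (7.79 high) at 1549 bp and PPARb (8.7) at 1649 bp.

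The beta subunits that replace the catalytic ones in the immunoproteasome (Psmb8, Psmb9 and Psmb10, induced by interferon) and in the thymus (Psmb11) were mostly without peaks. Of these 4 genes, 1 had a Qki-5 and an HA boundary peak, and 0 had PPARb, Pol II or an isolated-cell peak. The bound gene was Psmb9, with 8.85 for Qki-5 and 8.71 for HA. Both of its peaks lie at the end it shares with Tap1, a peptide transporter of antigen presentation, and both are low, at the 13.1 and 6.23 percentiles of bound genes. Psmb10 had 15.5 for Qki-5, 10.7 for PPARb, 10.4 for Pol II and 14.3 for HA inside the gene, 1114 to 1325 bp from the nearer end, and so outside the window. The nearest Qki-5 peak to Psmb8 was 7.19 high and 3051 bp away, and the nearest to Psmb11 was that of its neighbour Psmb5, 7195 bp away.

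All 6 base ATPase genes, whose products unfold substrates, had Qki-5, PPARb and HA boundary peaks, and 5 had Pol II. In isolated cells 2 of the 6 had Qki-5 and 0 had PPARb. Psmc4 had 26 for Qki-5, 12 for PPARb, 21.4 for HA and 12.8 for isolated-cell Qki-5, with the nearest Pol II peak 27410 bp away. Its Qki-5 height was at the 96.6 percentile of bound genes and its PPARb height at the 58.0 percentile. Psmc2 had 16, 13.8, 15.1 and 6.03 for Qki-5, PPARb, HA and Pol II, at an end close to Dnajc2. A further RefSeq start of Psmc2 had an isolated-cell Qki-5 peak of 10.1 at 16 bp that the gene-end rule did not take. Psmc3 had 14.9, 11.1, 12.7 and 13.3 in the same order. The remaining ATPase genes, Psmc1, Psmc5 and Psmc6, had Qki-5 heights from 11.6 to 16.6, and the Psmc5 peaks also lie close to Ftsj3.

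The non-ATPase subunits of the base and lid were fully occupied in differentiated cells. All 11 had Qki-5, PPARb, HA and Pol II boundary peaks, 9 had isolated-cell Qki-5 and 5 had isolated-cell PPARb. Psmd3 (chr11:98682554-98695978), a lid subunit, had 27.1 (95% exact Poisson interval 20.05 to 35.8) for Qki-5, 31.2 (24.3 to 39.4) for PPARb, 43.6 (32.8 to 56.7) for HA, 12.1 (8.14 to 17.2) for Pol II and 19.2 (13.9 to 26) for isolated-cell Qki-5. Ranked by height among the bound genes, Psmd3 was number 3 of 9206 for PPARb, 251 of 10141 for Qki-5 and 60 of 10175 for HA, and its Pol II height was at the 66.2 percentile. No isolated-cell PPARb peak was called there. Its PPARb interval overlapped those of Psmd7, Psme3, Psmb2 and Psmd12 and lay above that of every other proteasome gene.

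Psmd7, which pairs with the lid deubiquitinase Psmd14, had boundary peaks in all lists, at 24.3 for Qki-5, 21.4 for PPARb, 21.4 for HA, 12.9 for Pol II, 12.4 for isolated-cell Qki-5 and 7.61 for isolated-cell PPARb. Psmd14 itself had 14.9, 11.6, 18.2 and 11.7 in the differentiated cells and none in isolated cells. Psmd8, a lid subunit, had 23.2 for Qki-5, 17.4 for PPARb, 23.8 for HA, 13.3 for Pol II and 16.9 for isolated-cell Qki-5, with Catsperg1 close to the same end. Psmd4, a ubiquitin receptor, stood near the medians with 16, 12.5, 15.8 and 8.84, and had 14.7 for isolated-cell Qki-5. Psmd6 and Psmd11, both lid subunits, had 14.9 and 11.6 for Qki-5, 15.1 and 10.7 for PPARb, and 7.33 and 10.5 for isolated-cell Qki-5.

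The other non-ATPase genes with isolated-cell PPARb were Psmd1, Psmd2, Psmd12 and Psmd13. Psmd1, a large scaffold subunit of the base, had 15.5 for Qki-5, 14.2 for PPARb, 19.8 for HA, 6.43 for Pol II, and in isolated cells 17.4 for Qki-5 and 9.79 for PPARb. Psmd2, the other large scaffold, had 22.1, 12.9, 15.1, 16.5, 11 and 8.7 in the same order. Psmd12 had 13.8, 18.7, 27.7, 7.64, 15.6 and 9.24, so that it ranked at the 94.9 percentile for PPARb and the 46.0 percentile for Qki-5. Psmd13, which shares its end with Sirt3, had 24.3 for Qki-5, 16.9 for PPARb, 33.3 for HA, 10.4 for Pol II and 8.7 for isolated-cell PPARb, and is the only proteasome gene with isolated-cell PPARb and no isolated-cell Qki-5.

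**Figure D3:**
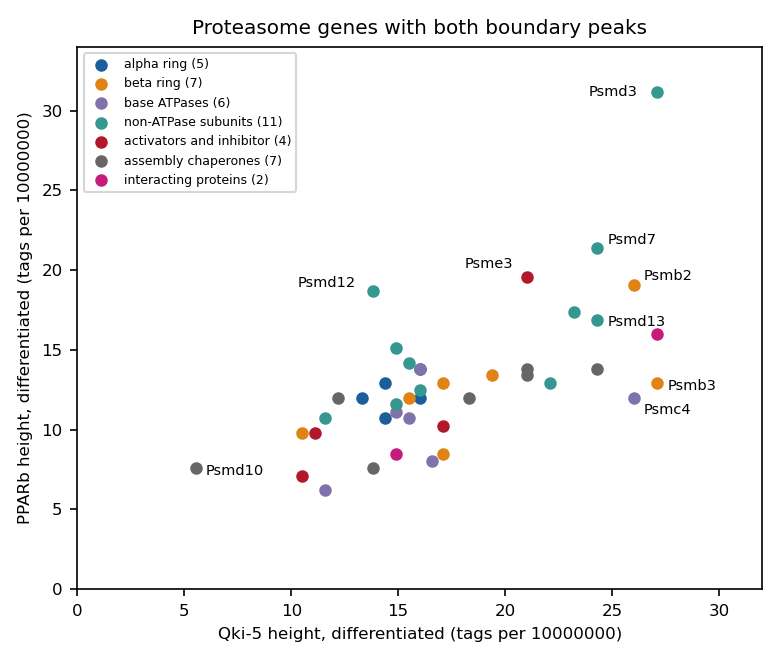
Each point is one of the 42 proteasome genes with both boundary peaks in differentiated cells, with the Qki-5 height on the x axis and the PPARb height on the y axis, both in tags per 10000000 and on linear axes, coloured by role. Psmd3 lies at 27.1 and 31.2, Psmd10 at 5.53 and 7.57, and Psmb3 and Psmc4 lie far to the right at PPARb heights of 12.9 and 12.

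Among the activators and the inhibitor, 4 of 6 genes had boundary peaks of all 4 differentiated-cell antibodies, 2 had isolated-cell Qki-5 and 1 isolated-cell PPARb. Psme3, the nuclear activator, had 21 for Qki-5, 19.6 for PPARb, 9.24 for Pol II and 27.7 for HA. It also had 22 (95% exact Poisson interval 16.2 to 29.2) for Qki-5 in isolated cells, the tallest isolated-cell boundary peak of the proteasome genes and at the 98.9 percentile of bound genes, and 8.7 for PPARb. Psme1 and Psme2 form the interferon-inducible activator. Psme1 was below the median of bound genes in every differentiated-cell list, with 10.5, 7.12, 14.3 and 5.22 for Qki-5, PPARb, HA and Pol II, and its Pol II height was at the 1.37 percentile. Psme2 had 17.1, 10.2, 14.3 and 8.04 in the same order and 13.7 for isolated-cell Qki-5, at an end close to Rnf31. Its tallest PPARb and isolated-cell Qki-5 peaks lay 573 and 604 bp from that end. The peaks at its RefSeq starts were lower, 9.79 for PPARb and 7.79 for isolated-cell Qki-5. Psme4, a nuclear activator of a separate type, had 11.1, 9.79, 15.8 and 11.7.

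The other two genes of this group had no boundary peak. Psme2b is a copy of Psme2, and the sources used here do not say how reads that match both copies were handled. Psmf1 encodes an inhibitor of the core. The gene table places Psmf1 at chr2:151716062-151744199, minus strand, with the RefSeq start used here at base 151741310. At that start every list had a peak, with 21 for Qki-5, 14.7 for PPARb, 13.5 for HA, 7.64 for Pol II, 9.16 for isolated-cell Qki-5 and 7.61 for isolated-cell PPARb, centred between 50 bp upstream and 62 bp downstream.

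All 7 assembly chaperone genes had Qki-5 and PPARb boundary peaks, 6 had HA and 6 Pol II. In isolated cells 4 had Qki-5 and 0 had PPARb. Psmg1, which builds the alpha ring, had 21 for Qki-5, 13.8 for PPARb, 22.2 for HA, 10.9 for Pol II and 12.8 for isolated-cell Qki-5. Psmg3 had 24.3, 13.8, 21.4, 9.24 and 7.33 in the same order. Psmd5, a chaperone of the ATPase ring, had 21, 13.4, 23 and 17.7 in the differentiated cells and no isolated-cell peak. The chaperone genes Psmd9, Psmg2 and Psmg4 had all 4 differentiated-cell peaks, with Qki-5 heights of 18.3, 13.8 and 12.2, and of these Psmd9 and Psmg4 also had isolated-cell Qki-5, at 13.3 and 12.8. The Qki-5 peak of Psmg2 also lies close to Cep76. Psmd10, also known as gankyrin, had the lowest Qki-5 boundary peak of the proteasome genes at 5.53, with 7.57 for PPARb, and the nearest HA peak lay 348930 bp away. Psmd10 is on chromosome X, and its Qki-5 height was at the 0.177 percentile of bound genes.

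The interacting protein genes were occupied as well. Psme3ip1 had 27.1 for Qki-5, 16 for PPARb, 15.7 for Pol II, 20.2 for isolated-cell Qki-5 and 10.3 for isolated-cell PPARb, the tallest isolated-cell PPARb boundary peak by the symbol rule. It had no HA boundary peak, and its peaks also lie close to Rspry1. Psmc3ip, a factor of meiotic recombination whose peaks lie at the end shared with Retreg3, had 14.9, 8.46, 10.3 and 7.64 for Qki-5, PPARb, HA and Pol II and 9.16 for isolated-cell Qki-5.

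Some peaks were shared with a neighbouring gene. Of the 43 proteasome genes with Qki-5, 12 (27.9%) were bound only by peaks that also lay within 1000 bp of another protein-coding gene, against 26.0% of other bound genes. This held for 7 of 28 with isolated-cell Qki-5, against 31.2%, and for 2 of 8 with isolated-cell PPARb, against 33.6%. Such a peak cannot be given to 1 of the genes. Without such peaks Qki-5 was at 31 proteasome genes (60.8%), against 34.2% of other genes. Qki-5 had a sole boundary peak at 42 of 43 proteasome genes (97.7%), against 86.6% of other bound genes, and PPARb at 40 of 43 (93.0%), against 88.3%. For HA this held at 38 of 42 (90.5%), against 83.9%, and for Pol II at 34 of 39 (87.2%), against 90.0%.

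The Qki-5 and PPARb peaks lay on nearly the same spot. Distances were taken from the tallest Qki-5 boundary peak of genes with boundary peaks of both antibodies. At the 42 such proteasome genes the nearest PPARb peak centre was 25.5 bp away in the median (quartiles 14.75 and 40.5 bp). At the 8721 other genes with both it was 50 bp away (21 and 107 bp). The peaks, each 200 bp wide, overlapped at 41 of the 43 proteasome genes with Qki-5 (95.3%), against 76.7% of the 10098 other genes with Qki-5. These shares include genes without a PPARb boundary peak, so they also reflect how many genes had both. The median distance from Qki-5 was 49 bp to HA and 90 bp to Pol II, against 67 and 121 bp at other genes, each among genes with both peaks. In isolated cells, where 7 proteasome genes had both, the median distance between Qki-5 and PPARb was 29 bp, against 49 bp. These distances are close to the resolution of a 200 bp peak.

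A start in the RefSeq promoter table, which gives strand, was found for 43 of the 51 genes. It was not found for Psma8, Psmb1, Psmb2, Psmb7, Psmc3, Psmd3, Psmd7 and Psmg2. Of the 43 genes, 39 (90.7%) had a Qki-5 peak within 1000 bp of a start, against 49.3% of other genes with a start. All 39 lay within 250 bp of it, as did 7416 of the 8606 at other genes. Where a gene had several starts or peaks, the closest pair was taken. A start peak of PPARb was at 38 (88.4%, against 45.1%), of HA at 37 (86.0%, against 49.7%) and of Pol II at 35 (81.4%, against 39.3%). In isolated cells Qki-5 was at 27 starts (62.8%, against 28.5%) and PPARb at 8 (18.6%, against 5.63%). Median positions of Qki-5, PPARb, HA and Pol II in differentiated cells were -33, -26.5, -15 and 42 bp from the start. At other genes they were -32, -26, 6 and 61 bp. The quartiles at proteasome genes overlapped, from -106 and 15 bp for Qki-5 to -119.5 and 74 bp for Pol II. With peaks 200 bp wide, an order of the antibodies was not resolved. In isolated cells the medians were -38 bp for Qki-5 and -89.5 bp for PPARb, against -38 and -64.5 bp at other genes. Boundary peaks of proteasome genes lay nearer the upstream end in 36 of 37 cases for Qki-5 and 39 of 40 for PPARb, against 92.6% and 93.3% of peaks at other genes.

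**Figure D4:**
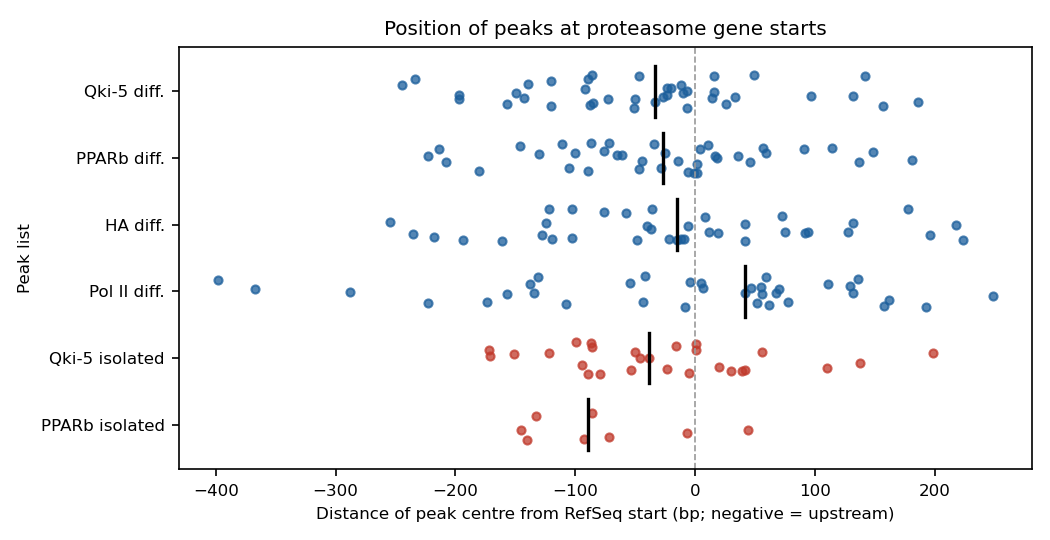
Points give the distance of each peak centre from the RefSeq start in bp (negative values are upstream) for proteasome genes with a start and a peak, by peak list, with vertical scatter added for legibility and a black bar at the median. Qki-5 and PPARb medians lie just upstream of the start, at -33 and -26.5 bp, and the Pol II median lies at 42 bp downstream.

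Counting peaks at a gene end or at a RefSeq start, a choice made after the peaks at Psma6 and Psmf1 were seen, gave 46 proteasome genes with Qki-5, 45 with PPARb, 44 with HA and 41 with Pol II. The shares of other genes rose as well, to 50.2%, 45.6%, 50.4% and 39.5%. Isolated-cell counts became 31 for Qki-5 and 9 for PPARb, against 28.6% and 5.45% of other genes.

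With all peaks of the lists, called at 4-fold over input, every proteasome gene bound in isolated cells was also bound by the same antibody in differentiated cells. For Qki-5 this held for 28 of 28 genes, against 94.9% of other genes, and for PPARb for 8 of 8, against 94.9%. In the other direction, isolated-cell Qki-5 was found at 65.1% of the proteasome genes with differentiated-cell Qki-5, against 54.0% of other genes, and for PPARb the shares were 18.6% and 11.3%. The tallest isolated-cell boundary peak overlapped a differentiated-cell peak of the same antibody at 26 of the 28 genes for Qki-5 (92.9%), against 85.8% of other genes, and at 8 of 8 for PPARb, against 83.0%. This did not hold at 8-fold over input. There 9 proteasome genes had isolated-cell Qki-5, and boundary peaks of both cell kinds overlapped at 6, while for PPARb the counts were 1 and 0. The overlap at 8-fold was not counted for other genes. In differentiated cells, the Qki-5 median was 17.1 at the 28 proteasome genes that also had it in isolated cells and 14.4 at the 15 that did not, with ranges of 11.6 to 27.1 and 5.53 to 24.3 that overlap. At other genes the same medians were 16.6 and 12.2. The cell kinds differ in strain, culture, the introduced receptor and peak number, and these cannot be told apart.

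Motif matches were counted in the RefSeq promoters of 43 proteasome genes and of all 17492 protein-coding genes with one, from 250 bases before to 50 after a start, on both strands. The ETS motif CCGGAAG was in 16 of the 43 (37.2%), against 12.9% of all promoters and 22.1% of those of other genes with a Qki-5 peak at the start. All 16 had a Qki-5 peak at the start, as did 39 of the 43 proteasome genes whatever their motifs. Of the 2265 promoters of all genes with this motif, 1898 were of other genes with a Qki-5 peak at the start. Among the 16 were the non-ATPase subunit genes Psmd2, Psmd4, Psmd6, Psmd11, Psmd12 and Psmd13 and the ATPase genes Psmc1, Psmc2 and Psmc6. TGACNNNGC was in 6 (14.0%), against 14.8%, at Psmb5, Psmb6, Psmc6, Psmd9, Psmd12 and Psme4. AGGTCA was in 10 (23.3%), against 16.7%, and 2 copies of it in the same direction with 1 base between them, the arrangement bound by PPAR dimers, were in 0, against 0.0572%. A promoter with that repeat is also counted for AGGTCA, and AGGTCA on the other strand can overlap the first bases of TGACNNNGC. ACTAAC was in 3 (6.98%), against 6.31%, and ACTAAT in 1 (2.33%), against 6.16%. CCAAT was in 16 (37.2%), against 42.3%. The remaining motifs were the nuclear respiratory factor motif GCATGCGC in 3 (6.98% against 3.94%), the E-box CACGTG in 5 (11.6% against 8.91%) and the YY1 motif AAGATGGC in 3 (6.98% against 3.57%). Among other genes with a Qki-5 peak at the start, these shares were 6.82%, 12.2% and 5.81%. In the same genes they were 17.1% for TGACNNNGC, 13.7% for AGGTCA, 5.67% for ACTAAC, 4.45% for ACTAAT and 43.7% for CCAAT. Promoter GC content had a median of 57.3% at proteasome genes and 56.3% at other genes. A match describes letters and does not show a bound site.

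Genes that work with the proteasome were bound at like shares in differentiated cells and at a higher share by isolated-cell Qki-5. Of 31 such genes, chosen for function, 28 (90.3%) had Qki-5, 28 PPARb, 28 HA and 23 (74.2%) Pol II, and in isolated cells 26 (83.9%) had Qki-5 and 7 (22.6%) PPARb. The shares of all protein-coding genes were 46.3%, 42.1%, 46.5%, 36.4%, 26.4% and 5.01% in the same order. Nfe2l1, the factor that raises proteasome genes, had boundary peaks in all 6 lists, at 18.3 for Qki-5, 16.5 for PPARb, 26.9 for HA, 16.9 for Pol II, and 8.7 and 8.16 for Qki-5 and PPARb in isolated cells. Pomp, which matures the core, had 19.9, 10.7, 22.2 and 12.1 in differentiated cells and 9.16 for isolated-cell Qki-5. Adrm1, a ubiquitin receptor, had 21.6, 15.6, 21.4 and 6.03, and 15.1 for isolated-cell Qki-5. Ecpas, a proteasome adaptor, had no boundary peak in any list. Ribosomal protein genes, another housekeeping set of 76, had Qki-5 at 94.7%, PPARb at 88.2% and Pol II at 90.8%, and the 10 chaperonin genes at 80.0%, 80.0% and 90.0%, so high shares were not confined to proteasome genes. Isolated-cell Qki-5 was at 78.9% of ribosomal protein genes and 50% of chaperonin genes, and isolated-cell PPARb at 17.1% and 20%.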

How the data were processed

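ChIP-seq peak lists of 6 antibody libraries were used, with the 2 input libraries present only as the authors' fold over input. The submitters' processing notes name HOMER 4.10.1, SAMtools 1.8, Bowtie 1.2.2, Trim Galore 0.4.4 and bcl2fastq 2.19.1.403 and the build mm10. Per the file headers, the authors called 200 bp peaks with HOMER at a false discovery rate of 0.001, at 4-fold over input (Poisson p 0.0001) and 4-fold over the surrounding 10000 bp. The normalized tag count, a signal scaled to 10000000 tags per the file headers, is the height, and the fold over input is a deposited ratio. Per the file headers, the isolated-cell input and the Qki-5 library of differentiated cells were stored as merged tags, and the sources used here do not say what was joined. Depth was 12624236 to 24880851 tags, and the boundary peak of a proteasome gene with the fewest tags, at Psmd10 in the Qki-5 list, held 10. Intervals of heights are 95% exact Poisson intervals and cover counting error only.

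Gene ends came from a RefSeq table of GRCm38.p6 without strand or exons, so UTRs, exons and introns were not told apart, and starts, strand and promoter sequences from a RefSeq promoter table of the same build. Per gene and list the tallest boundary peak was taken, and percentiles are over all bound genes of the list. Counts were made with Python 3.11.15, pandas 2.3.3, numpy 2.4.6 and scipy 1.17.1, and the peak assignment was tested on simulated data. With 1 library per group no test was run. Members, gene lists, roles and partner genes were chosen with earlier results of these data known. Genes were named by a rule: 18 fixed genes, up to 3 per role with both differentiated-cell factors ordered by the smaller percentile, those with isolated-cell PPARb, and those without a differentiated-cell boundary peak. Others are named to complete a group or pattern, after their values were seen. Of 32 partner genes listed, Paaf1 was not matched and 31 entered. Alternatives covered the window, thresholds, shared peaks, gene start, peak overlap and height measure. A further cell type marker is not reported here.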

Additional observations from a re-analysis of the deposited data

How the results depend on the processing

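No paired analysis was possible because each antibody and cell kind had 1 library. Of the alternatives for counts and median ratios, 124 values stayed within 1.5 times the reported count (or within the spread set for a ratio) and 13 did not. The spread set for a ratio of median heights was the Poisson interval of a single peak of the proteasome genes' median height. All such ratios fell within it, also the isolated-cell ones that turned, 0.952 (Qki-5) and 0.797 (PPARb). The tally is therefore no check on those ratios. At 8-fold over input, isolated-cell Qki-5 was at 9 proteasome genes (9.25% of other genes), isolated-cell PPARb at 1 (1.17%), all 4 differentiated-cell antibodies at 20 (15.4%) and both isolated-cell factors at 1, and genes shared by the cell kinds were 6 for Qki-5 and 0 for PPARb. With the 2000 tallest peaks of each list, the counts were 13 for Qki-5 (6.99% of other genes), 6 for PPARb (3.99%), 4 for HA (4.45%), 4 for Pol II (8.49%) and 18 for isolated-cell Qki-5 (9.42%), with both differentiated-cell factors at 5 (2.33%) and all 4 antibodies at 0 (0.266%). Both settings keep fewer peaks by construction, except that the isolated-cell PPARb list holds 1393 peaks and is left whole by the second, so that its 8 genes are no check. In the 2000 tallest peaks the shares of proteasome genes for HA and Pol II were thus 7.84% each, so that the Pol II share lay below that of other genes. The Pol II share leaves out Psma6, whose Pol II peak of 19.3 at a RefSeq start is not a boundary peak. The HA median ratio of 0.931 became 1 without shared peaks. At windows of 500, 2000 and 5000 bp, in the widened gene span, at starts only, and without interacting proteins, all counts of bound proteasome genes stayed within 1.5 times. Heights rest on few tags, 10 at the lowest (Psmd10, Qki-5).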
